A study of Mus musculus with 28 samples.

Results

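Clone 18 is a line of mouse embryonic fibroblasts, strain C57BL/6x129Sv, transformed with RAS and DNP53, in which cyclin D1 carries no tag. Of the 28 RNA-seq libraries of the series, 8 were compared here, chosen by their labels alone. Among them, 6 came from clone 18 lines carrying a construct: 3 from lines with mCherry/PURO and 3 from lines with FLAG-mCherry-HA/PURO, whose name puts both epitope tags around mCherry. Each construct gave a library labelled REP1 with HA siRNA, another labelled REP2 with HA siRNA, and a REP2 library with FLAG siRNA. The other 2 were parental clone 18, 1 with HA siRNA and 1 with FLAG siRNA. All 8 libraries therefore share the clone, the transforming genes and an overnight transfection of siRNA against a tag with RNAiMAX. The labels do not say how the constructs were brought in, how long cells were selected or whether REP1 and REP2 lines were made separately. They also do not say what the n of 3 or 4 in each title counts. The parental arm holds 1 library per siRNA, and no label ties libraries to a culture or sequencing batch. The construct, selection and batch therefore cannot be told apart. Whether the replicates are separate cultures is not stated, so p-values measure only the spread between these libraries, which may be technical.

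Lines that carry a marker gene such as mCherry with a puromycin resistance gene (PURO) are usually selected in the antibiotic, and the cells that grow out are a sample of the starting culture. Cells of one clone can differ in genes whose state is inherited through division, such as the HOX genes, which encode homeodomain factors of body position, and imprinted genes, which are expressed from the copy of one parent. Foreign nucleic acid can be read in fibroblasts by cytosolic RNA sensors and cGAS, which switch on interferon and, through a factor complex that includes IRF9, a set of antiviral genes that share a promoter element called the interferon-stimulated response element.

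The libraries held 30814024 to 49070763 counts in carrying lines and 43540285 and 38259606 in parental cells with HA and FLAG siRNA. The mCherry HA REP2 library stood apart: the ribosomal RNA precursor Rn45s took 2.75% of its counts, against 0.457% to 1.42% in the other 5 carrying libraries and 0.452% and 0.762% in parental HA and FLAG. Its median absolute log2 difference from parental HA was 0.397, against 0.163 to 0.197 for the other 3 carrying HA libraries. A score of 149 genes higher and 396 lower with HA than with FLAG siRNA in clones 12, 14 and 25 lay between 1.55 and 2.67 in the carrying HA libraries and at 0.911 and 1.08 in the carrying FLAG libraries, against 1.90 in parental HA and 1.20 in parental FLAG. Parental SCR, which received siRNA against neither tag, stood at 1.48, next to the lowest carrying HA library. By that score each HA library lay above each FLAG library. Of 465 genes that separated clones 25 and 18 at least 16-fold, 93.3% to 97.6% were nearer clone 18 in each carrying library. Fibroblast markers summed to 12103 to 14676 CPM (counts scaled to the library's TMM-adjusted total) in carrying libraries and to 13790 and 13957 CPM in parental libraries, with all 12 markers tested. Markers of leukocytes summed to 8.45 to 12.1 CPM in carrying lines and 9.05 to 9.28 CPM in parental cells, and those of endothelium to 1.58 to 2.68 and 1.88 to 3.23 CPM. Neural markers summed to 192 to 236 CPM in carrying lines and 255 and 266 CPM in parental cells, without overlap. That sum weights abundant members: of 8 tested, 5 had a positive log2 fold change and 3 a negative one, with a median of 0.07. The part of this sum in the results was not tested. Epithelial markers, carried mainly by the keratins Krt18 and Krt19, summed to 1425 to 1993 CPM in carrying lines and 1758 to 2022 CPM in parental cells, and myogenic markers to 7.77 to 15.6 CPM and 12.1 to 14.1 CPM. Myod1 and Myog were among 5 myogenic markers at 0 counts in all 8 libraries, whereas the neural, leukocyte and endothelial lists each had 1 marker at 0 in all 8 (Sox10, Tyrobp and Tie1).

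**Figure D1:**
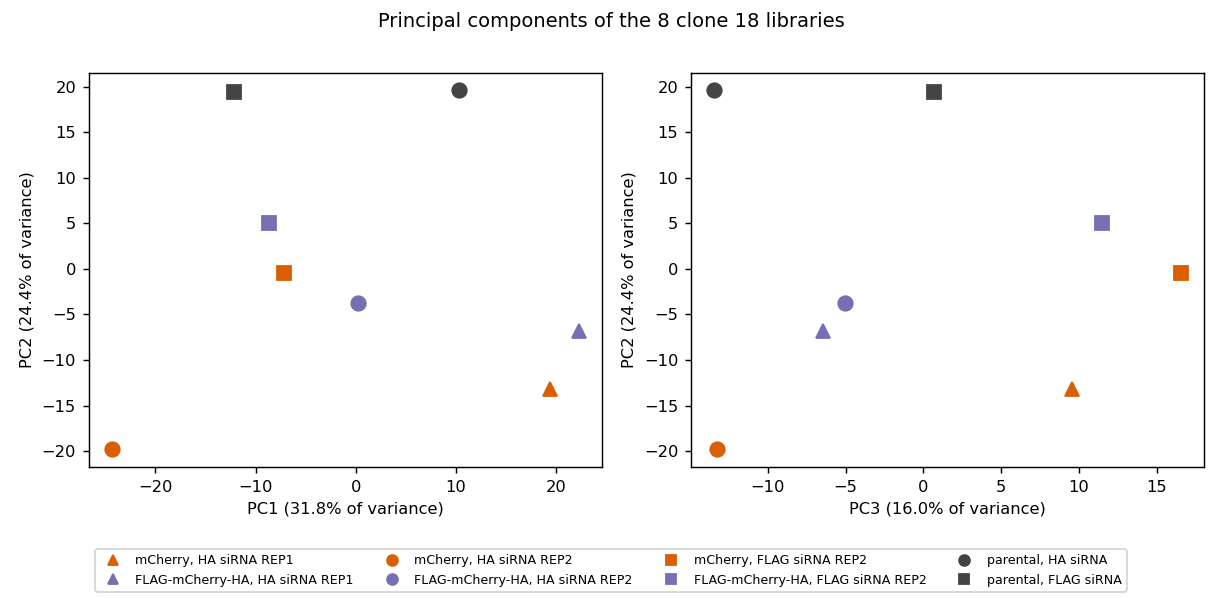
Each point is 1 library, placed by its scores on principal components of the log2 CPM of the 1000 most variable genes; colours give the construct or parental cells, and symbols the siRNA and REP label. On the second component, which held 24.4% of the variance, the 6 carrying libraries lay between -19.8 and 5.01 and the parental HA and FLAG libraries at 19.6 and 19.4.

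Carrying lines and parental cells were compared gene by gene with the siRNA as a block. The edgeR quasi-likelihood test called 0 of 13617 genes (0%) at a Benjamini-Hochberg adjusted p under 0.05, with 766 genes (5.63%) at an unadjusted p under 0.05 and a smallest adjusted p of 0.432, for Ifit3. DESeq2 on the same libraries called 85 genes (0.624%), 48 higher and 37 lower. An edgeR fit of all 28 libraries, which borrows the spread of the other clones, called 23 of 14378 genes (0.16%), 16 higher and 7 lower, and 21 of those 23 were among the 85 of DESeq2. Because the 8-library test called none, the values below are differences in these libraries, and a gene is counted as above or below parental only where all 6 carrying libraries lay on one side of the parental library with the same siRNA. By that count 1054 genes (7.74%) lay above and 1319 (9.69%) below. In bulk libraries a different share of cells and a different amount of RNA per cell cannot be told apart. The median log2 fold change of all genes tested was -0.01. Differences were mostly small: 402 genes were past 2-fold, 318 higher and 84 lower. Carrying HA values are given in the order mCherry REP1, FLAG-mCherry-HA REP1, mCherry REP2, FLAG-mCherry-HA REP2, and carrying FLAG values in the order mCherry, FLAG-mCherry-HA.

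Ccnd1, which encodes cyclin D1, stood at similar values in carrying lines and parental cells. It had 1307, 1301, 1174 and 1336 CPM in carrying HA libraries, against 1298 CPM in parental HA, and 1087 and 1062 CPM in carrying FLAG libraries, against 1002 CPM in parental FLAG (log2 fold change 0.03, SE 0.11). The ranges overlapped.

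Interferon response genes and RNA sensors were the list that stood furthest above parental. Of 36 tested members of 40 listed, 34 had a positive log2 fold change, with a median of 0.84. In 24 of 36 (66.7%) all 6 carrying libraries lay above the parental library with the same siRNA, and in 0 members all 6 lay below, beside the 7.74% and 9.69% of all genes. At an unadjusted p under 0.05 there were 20 members, all higher. Other choices of library were added after the data were seen. Leaving out carrying libraries could not take the count under 24. Without mCherry HA REP2, 27 members lay above in the other 5 libraries (11.3% of all genes did), and in the 4 REP2 libraries alone 27 members did (12.7%). With the SCR siRNA library of parental clone 18 added as another control, 15 members lay above every parental library, against 2.13% of all genes.

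The leading members were Ifit3 and Ifih1. Ifit3 (gene 15959, chromosome 19, 34583119 to 34588982, mm10), an antiviral protein that works beside the RNA-binding Ifit1, had 41.6, 47.4, 57.2 and 51.7 CPM in carrying HA libraries, against 22.2 CPM in parental HA. With FLAG siRNA it had 44.0 and 47.5 CPM in carrying libraries, against 25.7 CPM in the parental one. The groups did not overlap, and the log2 fold change was 1.00 (SE 0.15). Parental clone 18 with SCR siRNA, which is not in that fit, stood at 44.7 CPM for Ifit3 on the scale of the 12 libraries of clones 18 and 25, inside the range of the carrying lines. Ifih1 (gene 71586, chromosome 2, 62595618 to 62646255), which encodes the double-stranded RNA sensor MDA5, had 36.4, 27.8, 35.9 and 37.3 CPM in carrying HA libraries, against 16.3 CPM in parental HA. Its carrying FLAG libraries had 33.4 and 30.4 CPM, against 17.6 CPM in the parental one. The log2 fold change was 0.97 (SE 0.15), and all 6 libraries lay above all 3 parental ones, the SCR library being at 14.2 CPM. Ifih1 was called in the fit of all 28 libraries and by DESeq2, and Ifit3 by DESeq2.

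Other members, chosen after their values were seen except Parp14 and Oas1b, were at lower or more variable levels. Ddx58, which encodes the RNA sensor RIG-I, ran from 9.23 to 13.6 CPM in carrying lines with a median of 10.4, against 5.71 and 6.68 CPM in parental HA and FLAG (log2 fold change 0.87, SE 0.20). Ifit1 ran from 35.3 to 91.9 CPM, highest in mCherry HA REP2, against 18.6 and 28.6 CPM (1.40, SE 0.34). Ifi27, a small interferon-induced membrane protein, had 7.85 to 17.3 CPM, against 2.61 and 4.14 CPM (1.65, SE 0.38), and was also called in the fit of all 28 libraries. None of these 3 ranges overlapped parental. Isg15, a ubiquitin-like modifier, ran from 13.0 to 26.9 CPM in carrying lines, against 7.35 CPM in parental HA and 14.3 CPM in parental FLAG, so its groups overlapped although each carrying library exceeded its own parental one (1.00, SE 0.30). Usp18, the protease that removes Isg15, had 0.777 to 1.81 CPM, against 0.094 and 0.52 CPM. Parp14, an ADP-ribosyltransferase, had 0.652 to 1.12 CPM, against 0.235 and 0.13 CPM. Cxcl10, an interferon-induced chemokine, had 31.0 to 62.4 CPM, against 24.5 and 28.1 CPM. These 3 were separate from parental as well. Oas1b, an RNA-sensing synthetase family member, had 0 counts in both parental libraries and 5 to 15 counts in carrying libraries, too few for a ratio.

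Within the pathway the difference was uneven, in genes again chosen after their values were seen. Irf9, the DNA-binding part of the interferon-activated complex, had 7.30 to 10.4 CPM in carrying lines, against 5.38 and 5.59 CPM in parental HA and FLAG (log2 fold change 0.63, SE 0.18), and Irf7, a factor that amplifies interferon genes, had 0.87 to 1.75 CPM, against 0.329 and 0.728 CPM. Neither range overlapped parental. Stat2, a partner of Irf9, overlapped parental, with a log2 fold change of 0.24 (SE 0.15). Upstream, Irf3, Mavs, the adaptor of the RNA sensors, and Tmem173, which encodes STING, had log2 fold changes of -0.42 (SE 0.20), -0.17 (SE 0.16) and 0.00 (SE 0.10). Eif2ak2, the kinase PKR, was at 0.22 (SE 0.09) and above its own parental library in all 6. Samd9l, an interferon-inducible gene outside the list and chosen after its values were seen, had 2.03 to 4.48 CPM in carrying lines, against 1.03 and 0.78 CPM in parental cells, without overlap. Ifitm1, also interferon-inducible, outside the list and chosen in that way, went the other way. Every carrying library lay below both parental ones, as given with the constructs below.

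**Figure D2:**
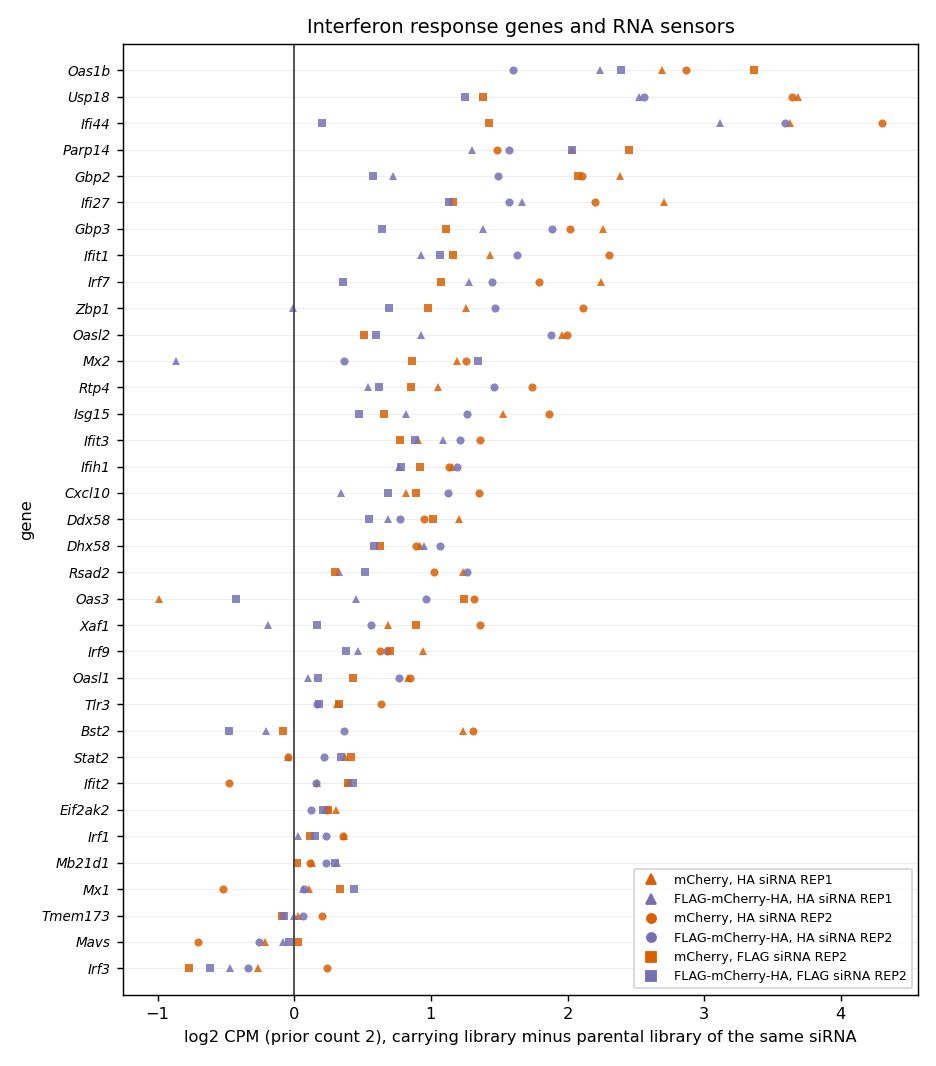
Each row is a tested interferon response gene or sensor (1 tested member is not drawn), and each point 1 carrying library, plotted as its log2 CPM minus that of the parental library with the same siRNA (prior count 2; the line at 0 is parental). Points lie right of 0 in every library for 24 genes of the list; Oas1b had 0 counts in both parental libraries, so its position depends on the prior count.

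The promoters of the genes with the clearest values show how the list divides by sequence. A motif of the interferon-stimulated response element, GAAA followed by any 2 bases and GAAA again, was searched on both strands of the 250 bases before each start site in the RefSeq promoters of GRCm38.p6, the assembly of mm10. It was found in 10 of the 24 tested members with a promoter there (41.7%), against 299 of 10161 tested genes (2.94%). That share is a property of the listed genes and does not rest on their levels in these libraries. Below, the last 150 bases before the start are given 5′ to 3′ on the gene's strand, with matches on either strand in capitals; neighbouring matches that overlap run together. A match on the opposite strand reads as TTTC, 2 bases and TTTC. The RefSeq start used for Ifit3 lies inside the wider gene span given above. Ifit3, Ifit1 and Isg15 hold matches, and Ifih1, whose level separated as clearly as that of Ifit3, is shown as a member with no match of these letters in the window. Ddx58, which also did not overlap parental, had no match either and is not shown.
Ifit3 (chr19:34583379-34583528, plus strand): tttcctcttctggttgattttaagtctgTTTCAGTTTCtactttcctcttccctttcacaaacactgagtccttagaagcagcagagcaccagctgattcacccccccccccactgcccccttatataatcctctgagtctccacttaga
Ifit1 (chr19:34640739-34640888, plus strand): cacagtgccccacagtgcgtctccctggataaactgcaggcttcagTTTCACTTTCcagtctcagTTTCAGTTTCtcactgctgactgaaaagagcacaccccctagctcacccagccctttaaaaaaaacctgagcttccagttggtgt
Isg15 (chr4:156200819-156200968, minus strand): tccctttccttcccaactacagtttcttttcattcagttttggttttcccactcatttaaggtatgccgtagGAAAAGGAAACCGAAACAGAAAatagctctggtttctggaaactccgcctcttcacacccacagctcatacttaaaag
Ifih1 (chr2:62646256-62646405, minus strand): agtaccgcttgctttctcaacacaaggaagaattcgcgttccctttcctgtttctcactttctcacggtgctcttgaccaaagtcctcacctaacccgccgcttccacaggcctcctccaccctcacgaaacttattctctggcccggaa

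Lists next to the interferon response were less uniform. Of 24 tested NF-kB targets, cytokines and chemokines, 8 (33.3%) lay above parental in all 6 libraries and 3 below, beside 7.74% and 9.69% of all genes. Above all 3 parental libraries there was 1 (4.17%), against 2.13% of all genes. Ccl2, a monocyte chemokine, had 130 to 204 CPM in carrying lines, against 97.4 and 108 CPM in parental HA and FLAG (log2 fold change 0.56, SE 0.17). Csf1, the macrophage growth factor, had 93.6 to 117 CPM, against 86.6 and 81.8 CPM (0.28, SE 0.11), below the 111 CPM of the SCR library. The cytokine Il33 (0.49, SE 0.19) and the chemokine Cxcl12 (0.37, SE 0.15) were above their own parental library in all 6, although the groups overlapped. In the list of class I antigen presentation, 9 of 11 members had a positive log2 fold change with a median of 0.23, and 2 (18.2%) were above parental in all 6 libraries. These were B2m, the light chain of class I molecules (0.43, SE 0.23), and the heavy chain gene H2-D1 (0.58, SE 0.35), and no member had an unadjusted p under 0.05. For B2m parental SCR, at 393 CPM, lay inside the carrying range of 379 to 655 CPM.

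**Figure D3:**
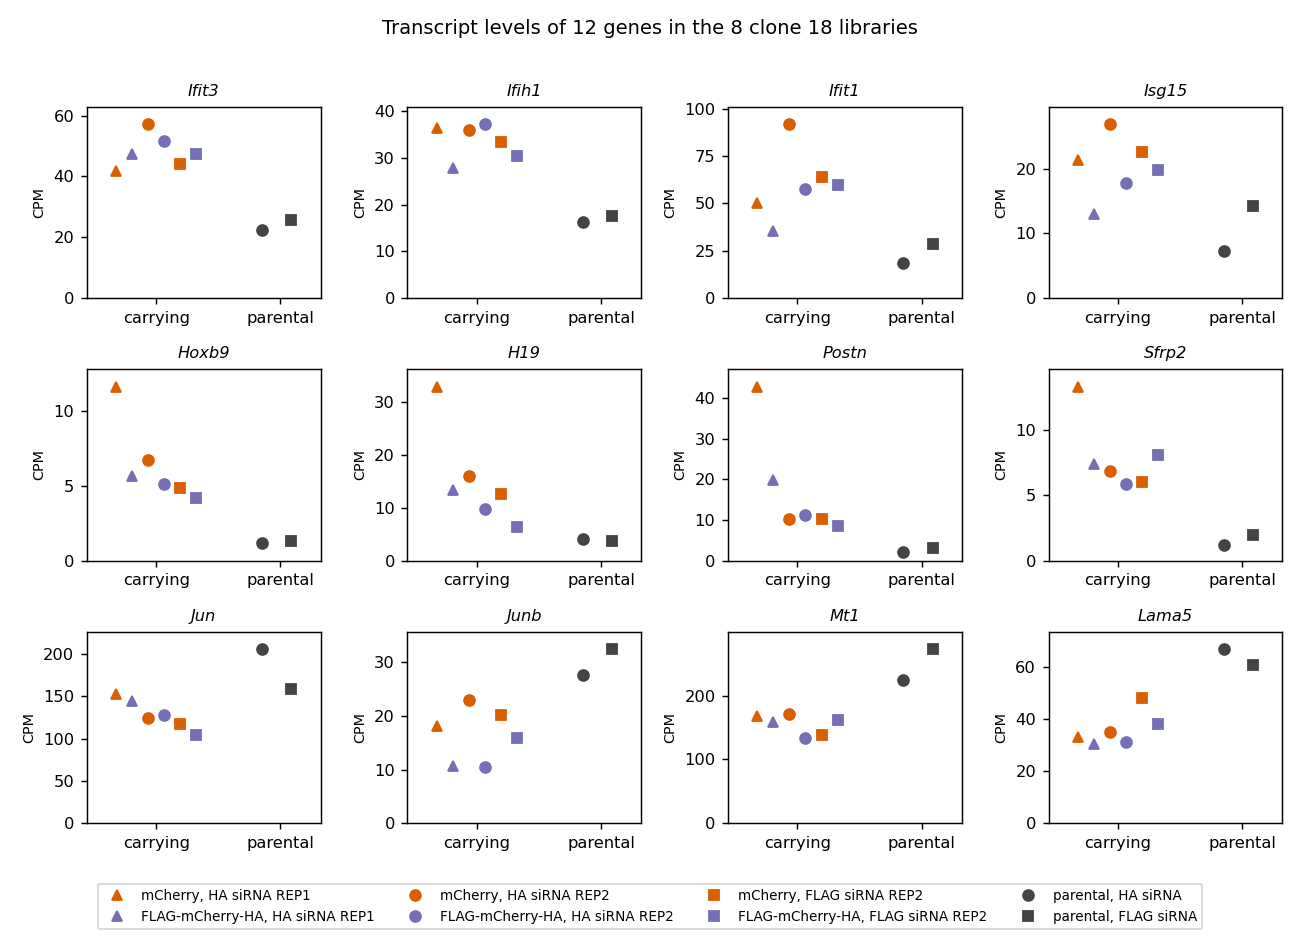
Each panel gives CPM of 1 gene in the 6 carrying libraries (left, coloured by construct) and the 2 parental libraries (right, grey), with symbols for siRNA and REP label and each axis starting at 0. In 11 of the 12 genes the groups do not overlap; Isg15 in parental FLAG, at 14.3 CPM, lies above its lowest carrying library, at 13.0 CPM.

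The HOX genes divided by cluster. Of 30 tested members, 10 (33.3%) lay above parental in all 6 carrying libraries and 2 lay below, beside 7.74% and 9.69% of all genes. The median log2 fold change was 0.26. Split by cluster after the values were seen, 7 of the 8 tested Hoxb genes on chromosome 11 were above parental in all 6 libraries, with a median of 1.57, against 0 of 11 Hoxa genes on chromosome 6, 1 of 6 Hoxc genes on chromosome 15 and 2 of 5 Hoxd genes on chromosome 2. The Hoxb genes lie side by side, and Hoxb5 was the exception. Hoxb9 (gene 15417, 96271330 to 96276595) had 11.6, 5.68, 6.72 and 5.12 CPM in carrying HA libraries, against 1.20 CPM in parental HA, and 4.83 and 4.17 CPM in carrying FLAG libraries, against 1.33 CPM in the parental one. Its log2 fold change was 2.20 (SE 0.40), and mCherry HA REP1 was the highest library.

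That library was also the highest for the neighbours Hoxb8 and Hoxb7. Hoxb8 had 1.07 to 2.59 CPM in carrying lines, against 0.376 and 0.442 CPM in parental HA and FLAG (log2 fold change 1.95, SE 0.42), and Hoxb7 had 1.21 to 3.11 CPM, against 0.47 and 0.702 CPM (1.71, SE 0.46). Hoxb9, Hoxb8 and Hoxb7 were called in the fit of all 28 libraries and by DESeq2. Hoxb2 and Hoxb6, chosen like Hoxc8 and the Hoxa genes below after their values were seen, had log2 fold changes of 1.63 (SE 0.51) and 1.51 (SE 0.48). In the c cluster, Hoxc8 had a lowest value of 6.49 and a median of 12.9 CPM, against 2.91 CPM in parental HA and 6.55 CPM in parental FLAG, and so overlapped (1.50, SE 0.45). On the other side stood Hoxa7, with 9.68, 9.57, 7.61 and 9.04 CPM in carrying HA libraries, against 17.3 CPM in parental HA, and 13.1 and 10.7 CPM in carrying FLAG libraries, against 17.7 CPM in the parental one (log2 fold change -0.79, SE 0.15). All 6 libraries lay below all 3 parental ones. The abundant Hoxa9, Hoxa10 and Hoxa11 had log2 fold changes of 0.01, -0.06 and -0.11, and all overlapped parental.

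**Figure D4:**
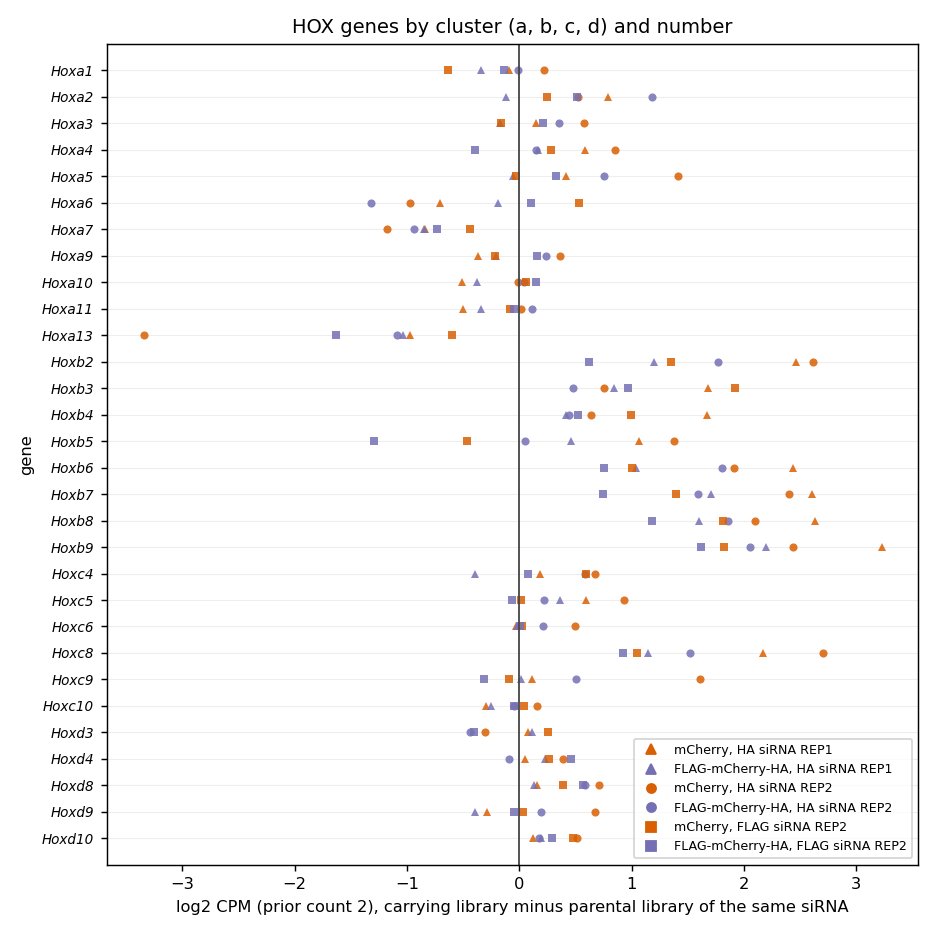
Each row is a tested HOX gene, ordered by cluster and number, and each point 1 carrying library as its log2 CPM minus that of the parental library with the same siRNA (prior count 2). All points lie right of 0 for Hoxb2, Hoxb3, Hoxb4, Hoxb6, Hoxb7, Hoxb8, Hoxb9, Hoxc8, Hoxd8 and Hoxd10, and left of 0 for Hoxa7 and Hoxa13.

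Of 23 tested imprinted genes, 5 (21.7%) lay above parental in all 6 carrying libraries and 1 below, beside 7.74% and 9.69% of all genes. Their median log2 fold change was 0.19. The maternally expressed long non-coding RNA H19 (gene 14955, chromosome 7, 142575530 to 142578146) had 32.9, 13.4, 16.1 and 9.88 CPM in carrying HA libraries, against 4.09 CPM in parental HA, and 12.7 and 6.45 CPM in carrying FLAG libraries, against 3.69 CPM in the parental one (1.78, SE 0.52). The groups did not overlap. Igf2, its paternally expressed neighbour, given with Dlk1 for context, stayed between 0.342 and 1.79 CPM in carrying lines, against 0.846 and 0.832 CPM in parental HA and FLAG. Rian and Meg3, maternally expressed RNAs of one cluster on chromosome 12, had 28.1 to 56.4 CPM and 17.9 to 32.5 CPM in carrying lines, against 22.3 and 21.1 CPM, and 12.4 and 15.0 CPM, in parental HA and FLAG. Their log2 fold changes were 0.92 (SE 0.24) and 0.79 (SE 0.24), without overlap, whereas Dlk1 of the same cluster was at 0.19 (SE 0.33). H19 and Rian were called in the fit of all 28 libraries and by DESeq2. Phlda2, a growth-restraining gene of chromosome 7, was below its own parental library in all 6 (log2 fold change -0.51, SE 0.16), with 7.38 to 13.8 CPM in carrying lines, against 11.7 and 21.6 CPM, so that the groups overlapped.

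Single matrix genes stood well above parental although their list did not. In the extracellular matrix list as a whole, 4 of 34 members (11.8%) were above parental in all 6 libraries and 4 below, beside 7.74% and 9.69% of all genes. The median was -0.04, close to that of all genes, but it differed by REP label. Against parental it was 0.20 in REP1 and -0.16 in REP2 lines, beside -0.01 and -0.02 for all genes. In a count added after the data were seen, 13 members (38.2%) lay below parental in all 4 REP2 libraries, against 14.1% of all genes. Above it in those libraries were 4 members (11.8%), against 12.7% of all genes. Postn (gene 50706, chromosome 3, 54359267 to 54391041), which encodes periostin, had 42.8, 19.7, 10.2 and 11.2 CPM in carrying HA libraries, against 2.11 CPM in parental HA. With FLAG siRNA it had 10.2 and 8.53 CPM in carrying lines, against 3.04 CPM in the parental one (log2 fold change 2.45, SE 0.70). Lum, the collagen-binding proteoglycan lumican, had 1.75 to 11.2 CPM, against 0.54 and 0.494 CPM (2.62, SE 0.76). Both were highest in the REP1 lines, and neither overlapped parental. Dpt, encoding dermatopontin (3.07, SE 0.77), Efemp1, encoding fibulin-3 (0.88, SE 0.22), and Fbln2, encoding fibulin-2 (1.02, SE 0.41), chosen after their values were seen, were also above parental in all 6 libraries. Dpt and Efemp1 were called in the fit of all 28 libraries. Eln, encoding elastin, was low throughout, with 0.123 to 0.589 CPM in carrying lines, against 1.17 and 0.988 CPM in parental cells (log2 fold change -1.77, SE 0.56), and the cross-linking enzyme Lox was at -0.52 (SE 0.19). The main collagen genes overlapped parental, Col1a1 being at -0.31 (SE 0.34) and Col1a2 at -0.02 (SE 0.19).

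Of 25 tested WNT genes, 4 (16%) were above parental in all 6 libraries and 0 below, beside 7.74% and 9.69% of all genes. The secreted antagonist Sfrp2 had 13.3, 7.42, 6.83 and 5.86 CPM in carrying HA libraries, against 1.22 CPM in parental HA, and 6.02 and 8.08 CPM in carrying FLAG libraries, against 1.95 CPM in the parental one (log2 fold change 2.32, SE 0.41). Sfrp1, of the same family, had 1.89 to 6.00 CPM, against 0.705 and 1.14 CPM (1.56, SE 0.56). Neither overlapped parental. Of 27 TGF-beta, BMP and activin genes, 4 (14.8%) were above and 1 (3.70%) below, beside the same shares of all genes. Ltbp2, a matrix protein of the TGF-beta-binding family, had 6.43 to 9.93 CPM in carrying lines, against 3.83 and 3.36 CPM in parental HA and FLAG (1.25, SE 0.21), and DESeq2 called it. Inhbb, an activin subunit (1.74, SE 0.47), and the receptor Bmpr1b (1.29, SE 0.47) were above parental at under 2 CPM, and the BMP target Id3 was at -0.82 (SE 0.33) with mCherry HA REP2 at the parental level. Carrying lines had 0.66 to 1.89 CPM for Inhbb and 49.9 to 146 CPM for Id3, and parental SCR lay inside both ranges, at 1.27 and 79.6 CPM.

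The genes of RAS-MAPK output were divided, with 13 positive and 14 negative log2 fold changes and a median of -0.01. Of 27 tested genes of RAS-MAPK output, 6 (22.2%) lay below parental in all 6 libraries and 2 above, beside 9.69% and 7.74% of all genes. Below all 3 parental libraries there were 2 (7.41%), against 2.43% of all genes. Jun (gene 16476, chromosome 4, 95049036 to 95052222), a subunit of the AP-1 transcription factor, had 153, 145, 124 and 128 CPM in carrying HA libraries, against 205 CPM in parental HA, and 117 and 104 CPM in carrying FLAG libraries, against 158 CPM in the parental one (log2 fold change -0.55, SE 0.11). The groups did not overlap. Junb, another AP-1 subunit, had 10.5 to 22.9 CPM, against 27.5 and 32.4 CPM in parental HA and FLAG (-0.84, SE 0.29), but parental SCR stood at 14.9 CPM, inside the carrying range. Fosb (-0.39, SE 0.15) and the receptor Epha2 (-0.41, SE 0.18) were below their own parental library in all 6 and overlapped as groups. Other immediate-early factors of the list, given after their values were seen, had positive log2 fold changes: Egr1 was at 0.21 (SE 0.12), Egr2 at 0.53 (SE 0.31) and Fos at 0.16 (SE 0.25). Egr1 and Egr2 were above their own parental library in 5 of 6. The feedback inhibitor Spry1 was above parental (0.78, SE 0.25), and the ERK phosphatase Dusp6 was at 0.19 (SE 0.12).

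Genes of the integrated stress and unfolded protein responses were slightly lower. Of 28 tested, 26 had a negative log2 fold change, with a median of -0.20. In all 6 libraries 10 (35.7%) lay below parental and 0 above, beside 9.69% and 7.74% of all genes. Without mCherry HA REP2, where the count could only stay or rise, there were 15 below (17.8% of all genes). Below all 3 parental libraries there were 3 (against 2.43% of all genes). Phgdh, the entry enzyme of serine synthesis, had 647 to 768 CPM in carrying lines, against 840 and 812 CPM in parental HA and FLAG (-0.30, SE 0.10). Chac1, which breaks down glutathione, had 23.7 to 37.5 CPM, against 43.5 and 42.3 CPM (-0.48, SE 0.19), the 2 REP1 libraries being lowest. Neither overlapped those 2 parental libraries, although Chac1 stood at 37.0 CPM in parental SCR, inside the carrying range. Cth, of cysteine synthesis, was at -0.29 (SE 0.10). Pck2, a mitochondrial enzyme of the same response, was at -0.32 (SE 0.14) and lay below in 5 of 6. Of the transcription factors in the list, Atf4 (-0.10, SE 0.21), Ddit3 (0.10, SE 0.31) and Xbp1 (0.12, SE 0.15), chosen after their values were seen, overlapped parental. Ddit3 and Xbp1 were the 2 members with a positive log2 fold change.

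Base composition moved with direction. Genes below parental in all 6 libraries had a median transcript GC content of 54.9%, those above 46.8% and all genes tested 49.6%. In 5 of 6 carrying libraries the 4320 genes with the highest GC had a negative median log2 difference from parental, between -0.18 and -0.08, whereas in mCherry HA REP2 it was 0.09. The part of this in the lower genes was not tested.

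The other lists are given by their counts, beside the 7.74% above and 9.69% below of all genes. Glycolysis and hypoxia genes were below parental in all 6 libraries in 5 of 25 (20%), led by the glucose transporter Slc2a1, with 95.3 to 112 CPM in carrying lines, against 132 and 145 CPM in parental HA and FLAG (-0.41, SE 0.08). DNA replication genes were below in 6 of 30 (20%), with Mcm2 at -0.25 (SE 0.11), and mitosis genes in 3 of 25 (12%), with Plk1 at -0.39 (SE 0.13). The p53 targets had 2 above and 3 below of 24, caspases and death activators 3 and 2 of 22, with the BH3-only gene Hrk at 1.82 (SE 0.70) and 0.115 to 0.312 CPM in carrying lines, and death inhibitors 0 and 1 of 11. D cyclins, CDK inhibitors and the RB family had 0 of 15 on either side. Contractile genes and YAP targets had 3 of 20 (15%) on each side, among them the light chain Myl9 (0.98, SE 0.43) and Ankrd1 (0.55, SE 0.23). Adhesion genes had 3 above and 5 below of 29 (17.2% below), with the integrin Itgb7 at -0.40 (SE 0.10), and growth factor genes 2 and 1 of 31, with Vegfc at 0.64 (SE 0.25). Efflux and NRF2 genes had 2 above and 4 below of 20 (20% below), with Srxn1 at -0.33 (SE 0.14) and the NRF2 inhibitor Keap1 at -0.28 (SE 0.11). Parental SCR did not share that order: it stood at 230 CPM for Srxn1, below every carrying library (243 to 415 CPM), and at 48.6 CPM for Keap1, inside their range of 40.3 to 49.7 CPM. It also lay inside the carrying range for Myl9, Hrk, Ankrd1 and Vegfc, at 2.97, 0.151, 14.5 and 5.24 CPM. Ankrd1, Vegfc, Mcm2 and Srxn1 also overlapped the parental HA and FLAG libraries as groups. Retroviral receptor and restriction genes had 1 above and 3 below of 15 (20% below), and cholesterol synthesis 0 and 4 of 23 (17.4%), with Mvk at -0.32 (SE 0.13). Mvk overlapped parental HA and FLAG as groups, and parental SCR, at 34.2 CPM, lay inside its carrying range. Germline genes had 4 tested of 25, of which 2 were above and 0 below, with the piRNA-pathway gene Tdrkh at 1.11 (SE 0.38).

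**Figure D5:**
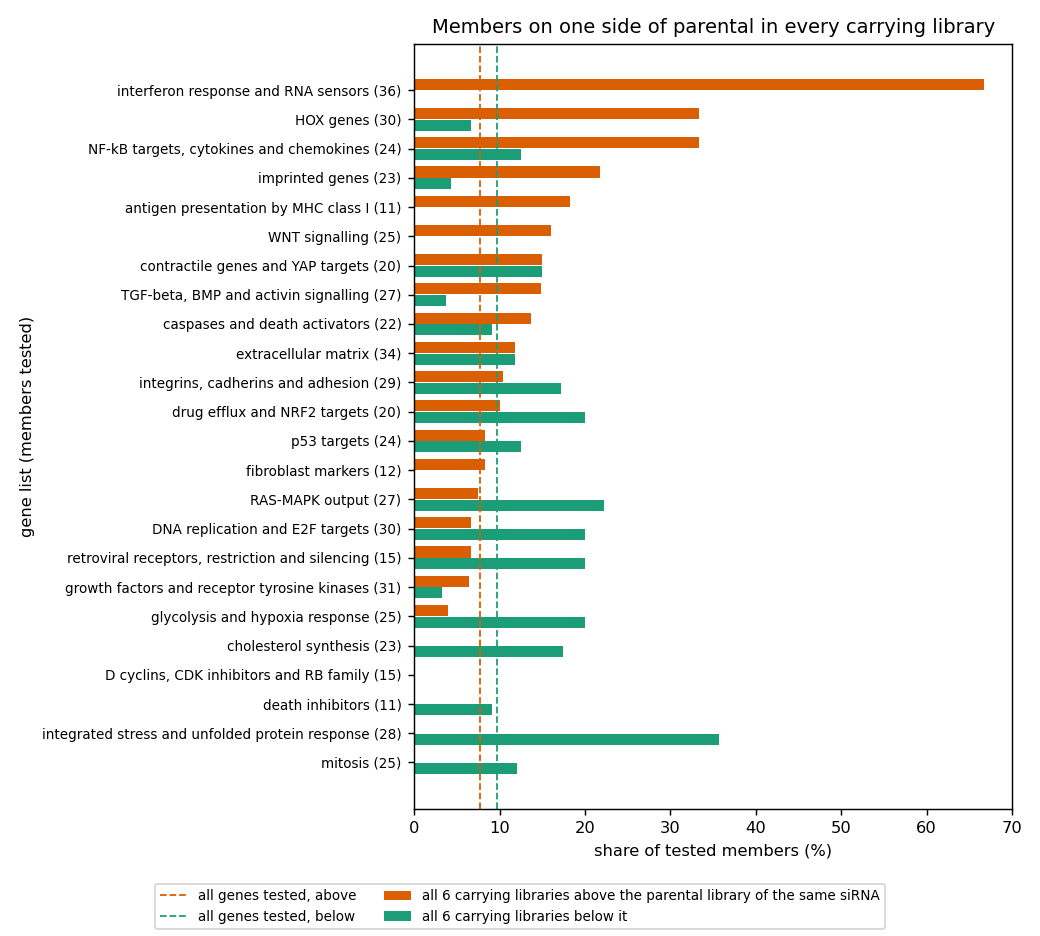
Bars give, for each list with at least 10 tested members (number in parentheses), the share of members above parental in all 6 carrying libraries (orange) and below it in all 6 (green); dashed lines give the same shares over all 13617 genes, 7.74% and 9.69%. The interferon list reaches 66.7% above and the integrated stress list 35.7% below.

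Of the 10889 tested genes whose mean reached 2 CPM, 44 lay above parental in all 6 libraries by at least 2-fold and 13 lay below. The genes of these sets named here outside the lists were chosen after their values were seen. Above were Lrrn1, a neuronal membrane protein, with 3.67 to 14.0 CPM in carrying lines, against 1.71 and 1.66 CPM in parental HA and FLAG (1.88, SE 0.52), the neuropeptide gene Cck (1.85, SE 0.54) and the GDNF-family co-receptor Gfra2 (1.60, SE 0.32). The largest difference below was in Il5ra, the interleukin-5 receptor, with 3.24, 3.76, 1.06 and 3.44 CPM in carrying HA libraries, against 10.3 CPM in parental HA, and 0.811 and 2.96 CPM in carrying FLAG libraries, against 8.27 CPM in the parental one (log2 fold change -1.96, SE 0.48). Hmga1, a chromatin protein, had 1.89 to 11.1 CPM, against 21.9 and 16.8 CPM (-1.49, SE 0.51). Both were separate from parental.

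Smaller but tighter differences below parental were seen in 2 abundant genes that the fit of all 28 libraries called. Mt1, a metal-binding metallothionein, had 168, 159, 171 and 134 CPM in carrying HA libraries, against 224 CPM in parental HA, and 139 and 161 CPM in carrying FLAG libraries, against 273 CPM in the parental one (-0.67, SE 0.13). Lama5, a laminin chain, had 30.4 to 47.9 CPM in carrying lines, against 66.8 and 60.7 CPM (-0.80, SE 0.14). Neither overlapped any of the 3 parental libraries. The smallest p of that fit belonged to Clip4, a microtubule-binding protein, which had 0.0287 to 0.521 CPM in carrying lines, against 0.775 and 1.35 CPM, and to the transcription factor Tfap2a, with 1.47 to 3.15 CPM, against 0.634 and 0.728 CPM. In the marker lists, the leukocyte gene Laptm5 had 0 to 0.172 CPM in carrying lines, against 0.634 and 0.702 CPM (-3.56, SE 0.68). It was the 1 negative member of the 4 leukocyte markers tested, and 3 were positive. The neural genes Map2 and Tubb3 were at 1.53 (SE 0.35) and -0.49 (SE 0.13).

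The 2 constructs were then set against each other in the same libraries. By its name, only FLAG-mCherry-HA holds the tags that the HA and FLAG siRNAs are directed against. The construct and the presence of an siRNA target therefore cannot be told apart here. The edgeR test called 0 of 13617 genes (0%), with 754 at an unadjusted p under 0.05 and a smallest adjusted p of 0.742, while DESeq2 called 22, 1 higher and 21 lower in FLAG-mCherry-HA lines. Past 2-fold, 43 genes were higher and 233 lower in FLAG-mCherry-HA lines. The genes named for this comparison were chosen after their values were seen. Spon2, a secreted matrix protein, had 5.31, 4.26 and 4.72 CPM in FLAG-mCherry-HA lines (HA REP1, HA REP2, FLAG REP2), against 10.0, 10.9 and 9.94 CPM in mCherry lines (log2 fold change -1.12, SE 0.16), with parental HA and FLAG at 3.15 and 3.62 CPM. Ifitm1, an interferon-inducible membrane protein, had 13.4, 10.4 and 10.1 CPM in FLAG-mCherry-HA lines, against 19.4, 27.0 and 22.9 CPM in mCherry lines (-1.03, SE 0.17), and parental cells had 27.2 and 29.8 CPM. In both genes the constructs did not overlap. Spon2 was nearer parental in the FLAG-mCherry-HA lines and Ifitm1 in the mCherry lines. The growth factor Mdk (-1.20, SE 0.24) and the actin-binding Cotl1 (-1.28, SE 0.20) were lower in FLAG-mCherry-HA lines as well. Of the genes above parental, Ifit3 and Sfrp2 differed between the constructs by 0.04 (SE 0.15) and -0.30 (SE 0.34), and H19 by -1.05 (SE 0.30). The interferon list as a whole had a median log2 fold change against parental of 0.99 in mCherry and 0.69 in FLAG-mCherry-HA lines. For the HOX genes these medians were 0.45 and 0.11, and for all genes -0.0155 and -0.0009. The differences between these medians were not tested.

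The REP1 lines, present with HA siRNA alone, were compared with the REP2 lines in the same way. The edgeR test called 0 of 13617 genes (0%), with 1923 at an unadjusted p under 0.05, and DESeq2 called 165, 105 higher and 60 lower in REP1. The genes named for it were chosen after their values were seen. Mgp, a matrix inhibitor of calcification, had 12.1 and 10.5 CPM in REP1 lines, against 98.0 and 47.5 CPM in REP2 lines with HA siRNA and 88.1 and 75.6 CPM in REP2 lines with FLAG siRNA (log2 fold change -2.56, SE 0.35). Parental HA and FLAG stood at 35.2 and 69.1 CPM, so the REP1 lines lay below both parental cells and REP2 lines. Car8, a carbonic anhydrase-related protein, had 131 and 124 CPM in REP1 lines, against 241 to 310 CPM in REP2 lines, with parental at 259 and 269 CPM. The angiotensin receptor Agtr2 had 45.5 and 32.6 CPM in REP1 lines, against 10.5 to 17.7 CPM in REP2 lines, and 11.4 and 10.9 CPM in parental cells. Postn and Lum, above parental in every line, were also 1.64 log2 units higher in REP1 than in REP2 lines (SE 0.32 and 0.40). Ifit3, Ifih1 and Hoxa7 differed by -0.22 (SE 0.15), -0.14 (SE 0.16) and 0.12 (SE 0.19). A dependence of the difference from parental on the siRNA was not detectable at this size: the interaction called 0 genes (0%) in edgeR and 0 in DESeq2, with 53 at an unadjusted p under 0.05.

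For scale, the same test between the parental clones 25 and 18, with SCR, FLAG and HA siRNA as blocks, called 6464 of 13467 genes (48%), 3174 higher and 3290 lower in clone 25. There 22.4% of genes were past 2-fold, against 2.95% between carrying and parental lines; the comparisons share the parental clone 18 libraries with HA and FLAG siRNA. The 5 genes with the smallest p, Esm1, Crisp1, Itih5, Ifi202b and Blnk, were nearly absent from clone 25, and the carrying lines were like clone 18. Esm1, a secreted endothelial proteoglycan, had 0.0681, 0.110 and 0.228 CPM in clone 25 and 460 to 706 CPM in clone 18, and the carrying lines had 415 to 797 CPM. For the genes described above, clone 25 exceeded clone 18 by 4.53 log2 units for Hoxb9 (SE 0.23), by 2.32 for H19 (SE 0.14), by 3.51 for Rian (SE 0.13) and by 3.74 for Dpt (SE 0.36). In carrying lines against parental those values were 2.20, 1.78, 0.92 and 3.07. Clone 25 was lower than clone 18 for Hoxa7, at -2.95 (SE 0.20), Ifit3, at -3.32 (SE 0.33), and Lum, at -3.84 (SE 0.64), where carrying lines stood at -0.79, 1.00 and 2.62. For Ifih1 the clones differed by 0.08 (SE 0.13), and carrying lines from parental by 0.97. The other interferon genes named above were divided between the clones. Clone 25 was higher for Ddx58 (2.06, SE 0.15), Ifi27 (2.46, SE 0.20), Parp14 (3.99, SE 0.34), Irf9 (1.92, SE 0.15), Irf7 (2.11, SE 0.32), Usp18 (2.61, SE 0.47), Eif2ak2 (1.13, SE 0.15) and Samd9l (3.60, SE 0.23). It was lower for Ifit1 (-1.19, SE 0.15) and Cxcl10 (-0.56, SE 0.15), and Isg15 was not called (-0.42, SE 0.20).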

How the data were processed

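Cells were harvested the morning after siRNA transfection, and poly(A) RNA was sequenced from a strand-marking kit as single 100 base reads, per the labels' protocols. The submitters' processing notes name CASAVA 1.8.2, FastQC, Bowtie2 2.2.3, TopHat2 2.0.13 and HTSeq 0.6.1p1, with build mm10. Neither the strand setting nor the annotation is given there, and overlapping, antisense or near-identical genes are therefore uncertain. The authors deposited a table of raw counts with 24079 rows and 28 libraries, and the 22 rows without an ID held up to 0.00761% of a library. Coordinates came from GRCm38.p6 for 23977 matched rows.

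In R 4.3.3, edgeR 4.0.16 was run on 8 libraries: filterByExpr with a minimum count of 10, TMM, and a robust quasi-likelihood fit with siRNA and carrying status (5 residual degrees of freedom, biological coefficient of variation 19.6%). CPM were computed with TMM, and log2 CPM with a prior count of 2. Further fits held the constructs, REP labels, an interaction, or clones 25 and 18. Each SE is the log2 fold change over the square root of its F. The closest pair of libraries had a chi-square of 14.0 per degree of freedom, so none was counted as a duplicate. Libraries with the same REP number and siRNA deviated together from their construct means (correlations 0.581, 0.358 and 0.396). These deviations still hold the siRNA effect, so they cannot show whether the numbers pair the constructs. For the replicate block the numbers were taken to pair them. The code was tested on simulated data.

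Groups, gene lists and alternatives were chosen with earlier results of these data known. Named genes were Ccnd1, up to 4 members with the smallest p per list, the 14 largest and smallest called differences (there were none) and 5 called genes per further comparison, at 2 CPM or more on average. Other genes are said to have been chosen after their values were seen. Alternatives were relative log expression size factors, other filters, a non-robust fit, DESeq2 1.42.0, the replicate block, other sets of libraries and leaving out each library. One list member was counted in its list but is not reported here.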

Additional observations from a re-analysis of the deposited data

Results flagged for a closer look

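Among 77 genes checked, 2 had a carrying library that stood apart from the other 5 in its log2 difference from the parental library with the same siRNA; with a 95% threshold, chance flags about 1 in 20 groups. For H2-D1 the mCherry HA REP2 library lay 1.61 above parental, against 0.06 to 0.53 in the other 5. For Phgdh the FLAG-mCherry-HA HA REP1 library lay at -0.13, against -0.36 to -0.33 in the other 5.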

How the results depend on the processing

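For carrying lines against parental clone 18, the 0 calls of edgeR became 85 with DESeq2 and 23 in the fit of all 28 libraries. For the constructs, 0 became 22 with DESeq2. For REP1 against REP2, 0 became 165 with DESeq2 and 23 with no filter on low counts. Leaving out 1 library gave 0 to 31 calls for carrying lines and 0 to 8 for REP labels, the most in both without mCherry HA REP2, and 0 for the constructs and the interaction, which could not be fitted without a parental library. Clone 25 against clone 18 gave 4195 calls, not 6464, with FLAG and HA siRNA alone, which has fewer libraries. The cause of the other shifts was not tested. The replicate block changed no call (0 for carrying lines, for constructs and, with the construct in the fit, for REP labels), nor did other size factors, the stricter filter, the non-robust fit, 3 parental libraries with no siRNA block, HA siRNA alone or REP2 lines alone. All 1378 alternative log2 fold changes of the 77 genes kept their direction, and 52 passed the threshold where the 8-library edgeR fit did not. Most of these genes were picked by their values in the same libraries, which the alternatives reuse, so a change of direction was unlikely from the start. With 1 parental library per siRNA, genes under 1 CPM rest on few counts.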
